A study of Mus musculus with 6 samples.

Results

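Galectins are small lectins that bind beta-galactosides on glycoproteins. The 6 genes described here are the galectin genes Lgals1, Lgals3, Lgals4, Lgals8 and Lgals9, together with Lgals3bp, which encodes galectin-3 binding protein. They were picked by gene symbol from the 18182 genes in the files, of which 17031 carry a symbol, and all 6 were found. Expression was measured in cells of the murine Lewis lung carcinoma line (LLC), which expressed red fluorescent protein (RFP) in both groups and grew under the skin of wild type C57BL/6 mice. In LLC alone, 3 libraries came from tumours of LLC-RFP cells without other cells. In LLC with BMSCs, 3 libraries came from tumours of LLC-RFP cells injected together with bone marrow-derived mesenchymal stem cells (BMSCs), which according to the methods were a purchased murine line. RFP-positive cells were sorted from the tumours by flow cytometry before sequencing, once tumours had reached a set size. The labels give neither the age of the mice nor the day of sorting, and the methods give an age for the tumour growth experiment with other LLC cells but not for these mice. It was not stated whether each library came from its own mouse, so that p-values measure only the spread between these libraries.

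Galectins differ in build. Galectin-1 has a single carbohydrate recognition domain and acts as a dimer, galectin-3 joins such a domain to a tail through which it can form larger assemblies, and galectin-4, galectin-8 and galectin-9 hold a pair of domains on one chain. They lack a classical signal peptide and act both inside the cell, where several of them bind glycans exposed on damaged endosomes and lysosomes, and outside it, where they bind to and cross-link glycoproteins. In tumours, galectin-1, galectin-3 and galectin-9 are known for binding to T cells, and galectin-3 for roles in adhesion. Galectin-3 binding protein is a heavily glycosylated secreted protein that galectins bind, and it is no galectin itself.

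The libraries held 33476347 to 46189113 counted fragments on genes. LLC alone replicates 1 and 2, and LLC with BMSCs replicates 2 and 3, were closer to each other (chi-square of 4.69 and 2.98 per gene) than the other pairs within a group (18.9 to 59.3), and all were kept as separate replicates. The cells were checked against markers. Of 8 carcinoma epithelial markers, 7 were in the files, and Krt8 alone had a mean of at least 1 FPKM (fragments per transcript length and library size), with 95.3 in LLC alone and 110 in LLC with BMSCs, so that most of the epithelial markers were at or near 0. The summed level of 15 BMSC and fibroblast markers was 494 to 574 CPM (counts scaled to library size) in LLC alone and 1017 to 1063 in LLC with BMSCs. Of the 12 tested markers 12 were higher by the test described below, which called 31.5% of all tested genes higher and 31.3% lower. Col3a1 led this list with a mean of 41.2 against 100 FPKM, while Thy1 was at 0 against 0.013. Dcn, Col1a1 and Acta2 were near 0 in LLC alone (0.11, 0.013 and 0.033 FPKM) and at 6.31, 2.003 and 0.71 in LLC with BMSCs. The 18 macrophage markers summed to 25.9 to 30.2 CPM against 48.0 to 49.8, with Cd14 the most abundant at 9.49 against 10.1 FPKM, and the defining markers Adgre1 and C1qa at 0 in LLC alone and 0.477 and 0.053 FPKM in LLC with BMSCs. Fcer1g went from 0.163 to 4.20 FPKM, Tyrobp from 0.013 to 1.82, Mpeg1 from 0.077 to 1.75 and Itgam from 0.0067 to 1.17. Of the 12 tested macrophage markers 9 were higher and 2 lower, and Cd68 was at 5.55 against 3.03 FPKM. The 10 neutrophil markers summed to 0.479 to 0.810 CPM against 21.3 to 23.9, led by S100a9 at 0.02 against 22.4 FPKM. Of these markers 7 were tested and 7 were higher. Several genes of the BMSC, macrophage and neutrophil lists were near 0 in LLC alone. They passed the filter on low counts through LLC with BMSCs, so that they could only be called higher. Ngp and Camp were at 0.01 and 0.06 FPKM in LLC alone and 2.60 and 1.10 in LLC with BMSCs. Ltf and Csf3r were lower in level, at 0.0033 and 0.0067 FPKM in LLC alone and 0.043 and 0.117 with BMSCs. Ly6g was near 0 in both groups, at 0.08 against 0.047 FPKM. The 8 endothelial markers summed to 1.07 to 1.32 CPM against 1.40 to 1.81, and the 9 lymphocyte markers in the files to 0.390 to 0.417 against 0.247 to 0.381. Levels are means over the sorted cells of a library, so that fewer cells of a type and less RNA per cell cannot be told apart, and the part of carried-over cells in the results below was not tested.

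Galectin expression in the sorted cells was dominated by Lgals1 in both groups. With BMSCs, the level of Lgals3 was lower by a factor of 3.09 and that of Lgals1 somewhat lower, while Lgals3bp and Lgals9 were 3.40 and 2.99 times as high. Of the 6 genes, 4 were higher in LLC with BMSCs (Lgals3bp, Lgals9, Lgals4 and Lgals8) and 2 were lower (Lgals3 and Lgals1) by edgeR's quasi-likelihood test at an adjusted p under 0.05. Lgals4 passed the filter on low counts only through the libraries in which it was higher, and with at least 10 counts required in every library 3 of 5 tested genes were higher and 2 lower. Over all 13353 tested genes, 31.5% were called higher and 31.3% lower, so that a call in itself is common in this comparison. With a log2 fold change of at least 1 required as well, 8.65% of tested genes were higher and 7.17% lower, and Lgals3bp, Lgals9, Lgals3 and, within the limit just given, Lgals4 met this. The FPKM values of the groups did not overlap for any of the 6 genes, as for 70.6% of all tested genes. The sizes of the changes set some of the genes apart more than the calls do. Only 7.41% of tested genes had a larger absolute log2 fold change than Lgals3bp, against 8.25% for Lgals3, 8.57% for Lgals9, 32.2% for Lgals8 and 45.4% for Lgals1.

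The promoters of Lgals9 and Lgals3bp are shown because these genes had the largest fitted rises among the 6 and because the study concerns STAT3 in these cells. Each runs from 250 bases before to 50 bases after the start that RefSeq gives (build GRCm38.p6, minus strand), with the motif matches in capitals.
Lgals9, chr11:78984875-78985174: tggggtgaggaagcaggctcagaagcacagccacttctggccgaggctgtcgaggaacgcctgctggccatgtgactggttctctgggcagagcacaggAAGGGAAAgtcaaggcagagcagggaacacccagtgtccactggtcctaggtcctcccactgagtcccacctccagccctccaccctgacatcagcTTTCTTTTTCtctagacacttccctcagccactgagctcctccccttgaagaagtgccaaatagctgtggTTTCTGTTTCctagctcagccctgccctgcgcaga
Lgals3bp, chr11:118401910-118402209: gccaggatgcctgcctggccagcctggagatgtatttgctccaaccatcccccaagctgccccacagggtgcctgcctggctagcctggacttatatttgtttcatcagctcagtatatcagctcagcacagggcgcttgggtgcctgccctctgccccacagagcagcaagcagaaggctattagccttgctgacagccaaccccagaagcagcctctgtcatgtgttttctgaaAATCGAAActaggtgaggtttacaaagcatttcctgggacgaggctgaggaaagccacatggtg
The core of the interferon-stimulated response element (ISRE), to which interferon regulatory factors (IRF) bind, was searched on both strands as GAAA, any 2 bases and GAAA, and the STAT site as TTCNNNGAA. An IRF element, AANNGAAA, was added after these sequences had been seen, and it can lie inside an ISRE core. The Lgals9 promoter held an ISRE core on the opposite strand at 2 places, GAAAAAGAAA starting 55 bases before the start and GAAACAGAAA within the first 50 bases after it. At least 1 ISRE core was present in 3.44% of the 32851 promoters of the table. The Lgals9 promoter also held an IRF element 151 bases before the start. The Lgals3bp promoter held no ISRE core but had an IRF element, AATCGAAA, 14 bases before the start. A match to this shorter element was found in 23.9% of promoters. The STAT site, present in 8.30% of promoters, was not found in any of the 5 promoters of these genes in the table, and neither the ISRE core nor the IRF element was found in those of Lgals3, Lgals4 and Lgals8. A single start was searched for each gene. The stretches searched for Lgals3 and Lgals8 lie inside the gene positions given below, so that promoters at other starts were not searched. A match describes letters and does not show that a factor binds there.

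Lgals1 (NCBI gene 16852, chromosome 15, 78926725 to 78930465, plus strand) encodes galectin-1. Positions of genes are from GENCODE on GRCm38, while the submitters' processing notes name the build mm8, and the annotation was not used for counting. Lgals1 had 2058, 2063 and 2578 FPKM in replicates 1 to 3 of LLC alone. In replicates 1 to 3 of LLC with BMSCs it had 1749, 1700 and 1603. Every library of LLC with BMSCs was below every library of LLC alone, and LLC alone replicate 3 was well above the other two. Only 21 genes had a higher mean FPKM in LLC alone and 25 in LLC with BMSCs. The log2 fold change was -0.43 (SE 0.099, edgeR adjusted p = 0.00631). The call was not kept once the trend of each library over transcript length was removed. Lgals1 has one of the shorter transcripts, at 817 bases, and the 2671 tested genes with the shortest transcripts (206 to 1585 bases) had a median log2 fold change of -0.28, and the median of LLC alone replicate 3 lay 0.31 above the mean of the 6 libraries there on the log2 scale. The medians of all LLC alone libraries there were above that mean (0.062, 0.037 and 0.31) and those of LLC with BMSCs below it (-0.19, -0.091 and -0.11). The trend thus differed between the groups as well, and its origin was not tested. With each library's length trend removed, the log2 fold change was -0.082 (edgeR adjusted p = 0.255). Without LLC alone replicate 3 and with the trend kept, it was -0.31 (edgeR adjusted p = 0.000443).

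Lgals3 (NCBI gene 16854, chromosome 14, 47367751 to 47386160, plus strand) encodes galectin-3. Its FPKM was 200, 195 and 232 in LLC alone and 73.6, 67.6 and 64.0 in LLC with BMSCs. The lowest library of LLC alone was thus far above the highest of LLC with BMSCs. The mean fell from 209 ± 20.005 to 68.4 ± 4.84 FPKM (SD, n = 3 each), with a log2 fold change of -1.63 (SE 0.092, edgeR adjusted p = 5.54e-06). Lgals3 also belongs to these short transcripts, and the fall was -1.41 with the length trend removed (edgeR adjusted p = 3.42e-07). The number of genes with a higher mean FPKM went from 374 in LLC alone to 1176 in LLC with BMSCs. The files list a pair of transcripts of Lgals3, of 1406 and 1379 bases. The longer held 45.2% to 52.3% of the Lgals3 FPKM in LLC alone and 50.1% to 55.4% in LLC with BMSCs, so that the shares overlapped between the groups while the FPKM of each transcript did not. How fragments were divided between such similar transcripts is the authors' estimate.

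Lgals9 (NCBI gene 16859, chromosome 11, 78962974 to 78984946, minus strand) encodes galectin-9, described as a ligand of the receptor TIM-3 on T cells. It had 8.37, 8.59 and 9.02 FPKM in LLC alone and 27.0, 25.6 and 26.2 in LLC with BMSCs. The groups lay far apart compared with the spread within either of them. The mean was 8.66 ± 0.331 against 26.3 ± 0.727 FPKM (SD, n = 3 each), and the log2 fold change was 1.58 (SE 0.062, edgeR adjusted p = 9.37e-07). Although Lgals9 too belongs to the short transcripts, whose median was lower with BMSCs, it was 2.99-fold higher in the fit, and its log2 fold change was 1.77 with the length trend removed (edgeR adjusted p = 4.39e-08). The number of genes with a higher mean FPKM went from 6693 in LLC alone to 3247 in LLC with BMSCs.

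The Lgals9 transcripts in the files differ in the linker between both domains. The longer, NM_010708 of 1586 bases, holds an exon that the shorter, NM_001159301 of 1493 bases, lacks. This exon, number 5 of the matching GENCODE transcript, has 93 coding bases, enough for 31 residues, and is shown because it is what tells the forms apart, in capitals with 15 transcript bases on each side in lower case.
Lgals9 exon, chr11:78969714-78969806 (GRCm38, minus strand): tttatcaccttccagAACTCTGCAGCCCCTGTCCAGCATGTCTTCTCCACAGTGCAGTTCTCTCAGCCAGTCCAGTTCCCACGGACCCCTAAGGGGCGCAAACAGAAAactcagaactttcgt
In the shorter transcript the lower case bases follow each other directly. The shorter form held 98.0% to 100% of the Lgals9 FPKM in LLC alone and 97.2% to 98.3% in LLC with BMSCs. The longer form was at 0.17 FPKM in LLC alone replicate 1, was not listed in replicate 2, and was at 0.12 in replicate 3, against 0.69, 0.72 and 0.44 in LLC with BMSCs. Its FPKM was higher in each library with BMSCs, as was that of the short form, while its share of the gene overlapped between the groups. As the authors' estimate divides the fragments, the rise of Lgals9 lay mostly in the form with the short linker.

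Lgals8 (NCBI gene 56048, chromosome 13, 12439415 to 12464944, minus strand) encodes galectin-8, which binds to glycans on ruptured vesicles and recruits autophagy receptors. Its FPKM was 11.5, 11.7 and 11.4 in LLC alone and 17.1, 18.7 and 17.4 in LLC with BMSCs. The rise was moderate but well outside the spread of either group, with a log2 fold change of 0.59 (SE 0.054, edgeR adjusted p = 6.24e-05). Its exons overlap those of Heatr1 on the opposite strand. Whether counting used the strand is not given in the sources used here, so that reads from the shared bases cannot be assigned with certainty. Of the 5 listed transcripts, NM_018886 held 44.1% to 50.1% of the Lgals8 FPKM in LLC alone and 38.8% to 44.95% in LLC with BMSCs. NM_001199043 held 25.7% to 36.6% against 29.1% to 35.6%, and NM_001291055 held 16.9% to 20.9% against 18.4% to 27.5%. No transcript's share was separated between the groups, and the FPKM of each of these 3 was higher with BMSCs in every library.

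Lgals4 (NCBI gene 16855, chromosome 7, 28833854 to 28841708, plus strand) encodes galectin-4, best known from the intestinal epithelium. It was barely expressed, with 0.12, 0.21 and 0.25 FPKM in LLC alone and 0.51, 0.42 and 0.48 in LLC with BMSCs. These values rest on 8, 10 and 16 estimated counts against 32, 26 and 29. The groups did not overlap, but the counts are few. The log2 fold change was 1.25 (SE 0.27, edgeR adjusted p = 0.00489). With at least 10 counts required in every library it could not be tested.

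Lgals3bp (NCBI gene 19039, chromosome 11, 118392751 to 118402092, minus strand) showed the largest fitted change of the 6 genes. Its FPKM was 11.8, 11.6 and 11.98 in LLC alone and 42.7, 39.6 and 39.9 in LLC with BMSCs. The libraries within each group were close together and the groups far apart. The mean was 11.8 ± 0.185 against 40.7 ± 1.72 FPKM (SD, n = 3 each), and the log2 fold change was 1.77 (SE 0.061, edgeR adjusted p = 5.82e-07), or 3.40-fold. The number of genes with a higher mean FPKM went from 5724 to 2070. The value hardly depended on transcript length, with a log2 fold change of 1.85 once the length trend was removed.

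**Figure D1:**
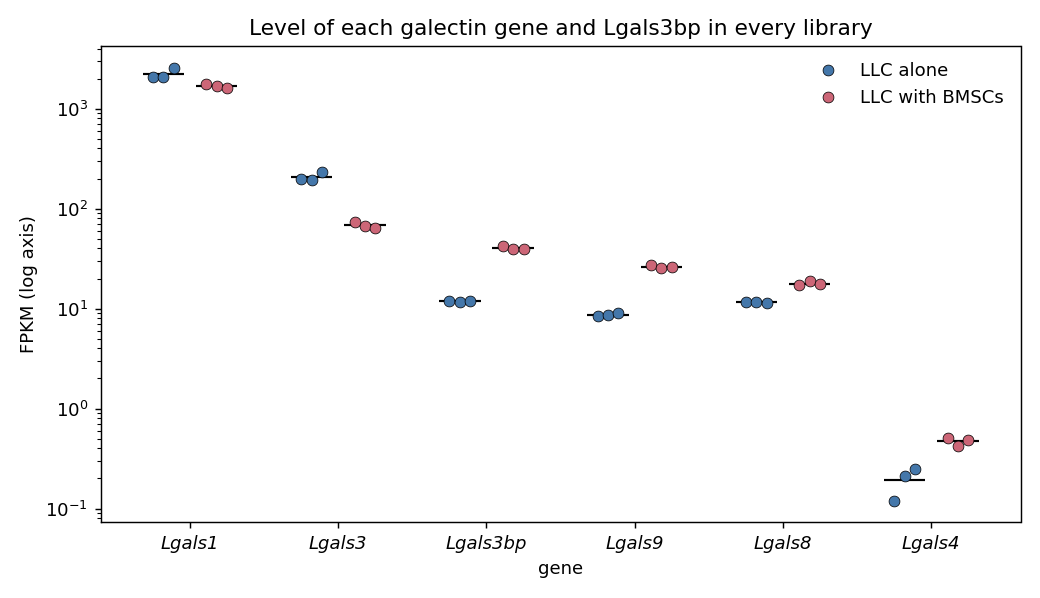
FPKM on a log axis of the galectin genes and Lgals3bp in every library. Points are libraries, blue for LLC alone and red for LLC with BMSCs, and black lines are group means. Lgals1 is near 2000 FPKM in both groups, Lgals3 falls from a mean of 209 to 68.4, and Lgals3bp, Lgals9, Lgals8 and Lgals4 are higher in every library with BMSCs.

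**Figure D2:**
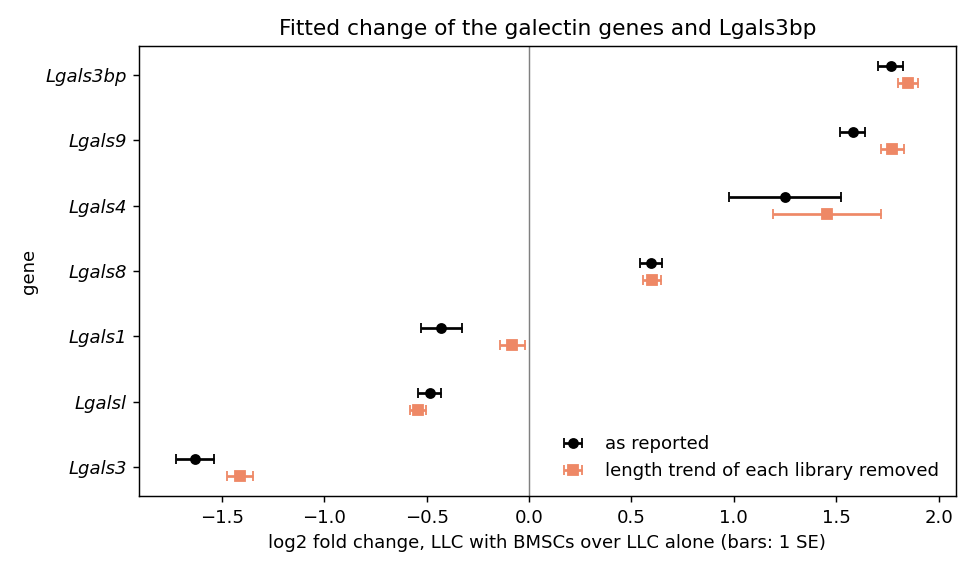
Log2 fold change of LLC with BMSCs over LLC alone with 1 SE, as fitted by edgeR (black circles) and with each library's trend over transcript length removed (orange squares). Lgals1 moves from -0.43 to -0.082, while the other genes stay on the same side of 0 with similar sizes.

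The order of the levels changed between the groups. In LLC alone, FPKM was highest for Lgals1, then Lgals3, Lgals3bp, Lgals8, Lgals9 and Lgals4, and the neighbours Lgals3bp (11.6 to 11.98) and Lgals8 (11.4 to 11.7) overlapped. In LLC with BMSCs the order was Lgals1, Lgals3, Lgals3bp, Lgals9, Lgals8 and Lgals4, and the ranges of neighbours did not overlap. Lgals9, below Lgals8 in every library of LLC alone, was above it in every library of LLC with BMSCs. This order holds per transcript length. In CPM, which does not divide by length, Lgals8 stayed above Lgals9 in LLC with BMSCs and was above Lgals3bp in LLC alone. Summed over the 5 galectin genes, the level was 2278, 2278 and 2830 FPKM in LLC alone and 1867, 1813 and 1712 in LLC with BMSCs. Since Lgals1 made up 90.7% of this sum in LLC alone and 93.7% in LLC with BMSCs, the sum mostly followed Lgals1. The length trend was not removed from its means of 2462 ± 319 and 1797 ± 79.0 FPKM (SD, n = 3 each). Without Lgals1 the sum was 220, 215 and 252 FPKM against 118, 112 and 108, in which Lgals3 was the largest term. The exact permutation test gave p = 0.1 for both sums, the smallest two-sided value that 3 libraries against 3 allow.

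Lgals3bp and Lgals3, the genes of a binding partner and its galectin, moved in opposite directions, and their ratio was added after these values had been seen. The FPKM ratio of Lgals3bp to Lgals3 was 0.0590, 0.0596 and 0.0517 in LLC alone and 0.580, 0.585 and 0.623 in LLC with BMSCs. The ratio was thus 10.5 times as high with BMSCs, although Lgals3 was still the more abundant of the pair in every library. The ratio of Lgals9 to Lgals3 went from 0.0416 ± 0.00259 to 0.385 ± 0.0219 (SD, n = 3 each). The ratio of Lgals1 to Lgals3 went from 10.7 ± 0.421 to 24.7 ± 0.770 (SD, n = 3 each), as Lgals3 fell by more than Lgals1.

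**Figure D3:**
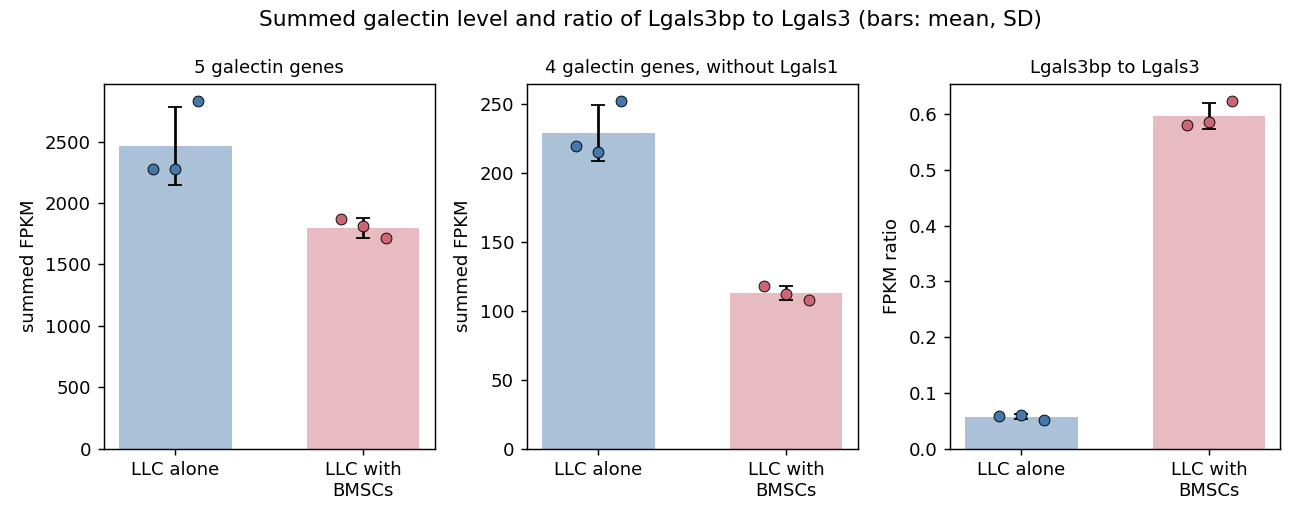
Summed FPKM of the 5 galectin genes, the same without Lgals1, and the FPKM ratio of Lgals3bp to Lgals3. Bars are group means with SD, points are libraries, and all axes start at 0. The sums are lower in every library with BMSCs, and the ratio rises from a mean of 0.0568 to 0.596.

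Of the 9 other galectin family genes that were looked for, 3 were in the files. Lgalsl, which encodes a galectin-related protein, had 25.0, 25.3 and 23.7 FPKM in LLC alone and 17.5, 17.9 and 18.2 in LLC with BMSCs. It was lower in each library with BMSCs (log2 fold change -0.49, SE 0.055, edgeR adjusted p = 0.000187). Lgals2 was at 0 to 0.12 FPKM and Lgals7 at 0.16 to 0.47 over the 6 libraries, too low for the filter, and their groups overlapped.

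The genes whose profiles over the 6 libraries were nearest to each gene were found by the root mean square difference of centred log2 CPM among 10594 genes. For Lgals9 they were Bhlhe40 (0.036), Adm (0.038) and Egln3 (0.050), and for Lgals3bp they were Rnf19b (0.036), Egln3 (0.056) and Spsb1 (0.057). For Lgals3 they were Gm10863 (0.029), Tmem62 (0.047) and Snx8 (0.062), for Lgals8 Caprin2 (0.018), Mical1 (0.021) and Gpcpd1 (0.022), and for Lgals1 they included Fam89b (0.027) and Mtch1 (0.033). The Lgals4 profile was matched less closely, by Bcl2l15 (0.166), Doc2g (0.196) and Fam132a (0.198). With 6 libraries in a pair of groups, such likeness mostly reflects a similar size of change.

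Galectins recognise galactose on glycans whose branching, extension and capping are set by glycosyltransferases, so the genes that make these glycans were counted next. Of 25 genes for N-glycan branching and poly-N-acetyllactosamine synthesis, 21 were tested, 9 (42.9%) were higher and 3 (14.3%) lower, against 31.5% and 31.3% of all tested genes. The median log2 fold change was 0.15 against 0.012 over all tested genes. With the length trend removed, 10 were higher and 5 lower and the median was 0.075. The higher genes include B4galt6, at 0 FPKM in LLC alone and 0.073 in LLC with BMSCs, which passed the filter through the latter group. With at least 10 counts in every library, 8 of 20 were higher and 3 lower. Mgat5, whose branch carries much of the poly-N-acetyllactosamine that galectin-3 binds, had 1.28, 1.32 and 0.56 FPKM in LLC alone and 3.39, 2.89 and 2.82 in LLC with BMSCs. Its level was low but higher in every library with BMSCs (log2 fold change 1.52, SE 0.27, edgeR adjusted p = 0.00186). The mannosidase genes Man2a1 and Man1a, whose enzymes trim mannose from N-glycans, rose by 1.16 and 1.13 on the log2 scale (edgeR adjusted p = 0.000141 and 1.06e-05). Mgat4b, which encodes another branching enzyme, went the other way, from 66.0 ± 2.32 to 29.0 ± 1.19 FPKM (SD, n = 3 each, log2 fold change -1.21, SE 0.063, edgeR adjusted p = 3.72e-06).

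Among 12 genes for O-glycan synthesis, 9 were tested, with 3 (33.3%) higher and 3 (33.3%) lower, against 31.5% and 31.3% of all tested genes. The median log2 fold change was -0.081 (-0.18 with the length trend removed). Gcnt2, which makes branched poly-N-acetyllactosamine, rose from 5.07 ± 0.310 to 11.7 ± 0.280 FPKM (SD, n = 3 each, log2 fold change 1.19, SE 0.061, edgeR adjusted p = 3.60e-06). Galnt1, which starts O-glycans, and Gcnt1, which forms the core 2 branch, had log2 fold changes of 0.60 and 0.43 (edgeR adjusted p = 6.33e-05 and 0.00093). C1galt1c1, the chaperone of the core 1 enzyme, fell by 0.68 on the log2 scale (edgeR adjusted p = 0.000169).

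Sialic acid on galactose can mask it from some galectins. Of 15 genes for sialylation or the removal of sialic acid, 13 were tested. Of these, 6 (46.2%) were higher and 4 (30.8%) lower, against 31.5% and 31.3% of all tested genes. The 4 lower genes were the transferase genes St3gal5 and St3gal6 and the sialidase genes Neu1 and Neu3. Sialidases remove sialic acid and so act against the transferases. The median was 0.12 (0.19 with the length trend removed). St3gal1, which caps core 1 O-glycans, had 5.78, 5.38 and 4.51 FPKM in LLC alone and 15.9, 14.2 and 14.3 in LLC with BMSCs (log2 fold change 1.48, SE 0.10, edgeR adjusted p = 1.36e-05). St3gal3 rose by 0.72 on the log2 scale, and St3gal6 and the sialidase gene Neu1 fell by 0.87 and 0.58 (edgeR adjusted p = 0.00016, 7.54e-05 and 0.00166). Within these 3 lists the members went in both directions, with shares near those of all tested genes for the O-glycan list. The counts in them depended on single libraries. Without LLC alone replicate 3, the lower genes numbered 5 for N-glycans and 5 for O-glycans, without LLC alone replicate 1 the higher sialylation genes numbered 3, and without LLC with BMSCs replicate 3 the lower ones numbered 2.

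Of 39 genes for possible binding partners (counter-receptors) of galectins, listed from general knowledge, 35 were tested. Of these, 18 (51.4%) were higher and 7 (20%) lower, against 31.5% and 31.3% of all tested genes. The median log2 fold change was 0.49 (0.34 with the length trend removed). Several of the higher genes were near 0 in LLC alone and passed the filter through the other group, and with at least 10 counts in every library 14 of 30 were higher and 7 lower. The cell adhesion gene Alcam, the laminin gene Lama5 and the integrin gene Itgav, whose transcripts are long, were higher. Alcam went from 2.81 ± 0.297 to 7.20 ± 0.114 FPKM (SD, n = 3 each), with a log2 fold change of 1.34 (SE 0.081, edgeR adjusted p = 8.00e-06). The log2 fold changes of Lama5 and Itgav were 1.30 and 1.29 (edgeR adjusted p = 0.00125 and 6.24e-05). The proteoglycan gene Cspg4 was lower, at 0.85, 0.85 and 0.55 FPKM in LLC alone and 0.17, 0.10 and 0.11 in LLC with BMSCs (log2 fold change -2.59, SE 0.24, edgeR adjusted p = 6.98e-05). The leukocyte gene Ptprc is also on this list and on the macrophage list, at 0.03 against 0.45 FPKM. The genes of the lysosomal glycoproteins Lamp1 and Lamp2, chosen here after their values were seen, had 371 against 230 and 117 against 73.6 FPKM.

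Of 24 genes that act where galectins mark damaged vesicles, all were tested, 7 (29.2%) were higher and 13 (54.2%) lower, against 31.5% and 31.3% of all tested genes, with a median log2 fold change of -0.22 (-0.14 with the length trend removed). Sqstm1, which encodes the autophagy receptor p62, had 694, 717 and 760 FPKM in LLC alone and 170, 181 and 176 in LLC with BMSCs. The fall was large compared with the spread within either group (log2 fold change -2.07, SE 0.061, edgeR adjusted p = 3.03e-07). The genes of the autophagosome proteins Gabarap and Gabarapl1 fell by 1.34 and 1.21 on the log2 scale, and Lamtor1, a lysosomal anchor of mTORC1 signalling, fell by 1.14 (edgeR adjusted p = 4.67e-05, 3.70e-06 and 1.90e-05). Estimated counts of Gabarap were not whole in any of the 6 libraries, as happens where fragments are divided between genes, which makes its value uncertain. The same holds for St3gal6, Fam89b, Bcl2l15 and Doc2g in 6 libraries, St3gal1 in 4, C1galt1c1 in 3 and Lamtor1 in 1. Trim16, which works with galectin-3 at damaged membranes, rose by 0.84 on the log2 scale (SE 0.10, edgeR adjusted p = 0.000223). Lgals8 and Lgals3, which encode galectins that mark such vesicles, moved in opposite directions, as given above. Lgals9 was higher.

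**Figure D4:**
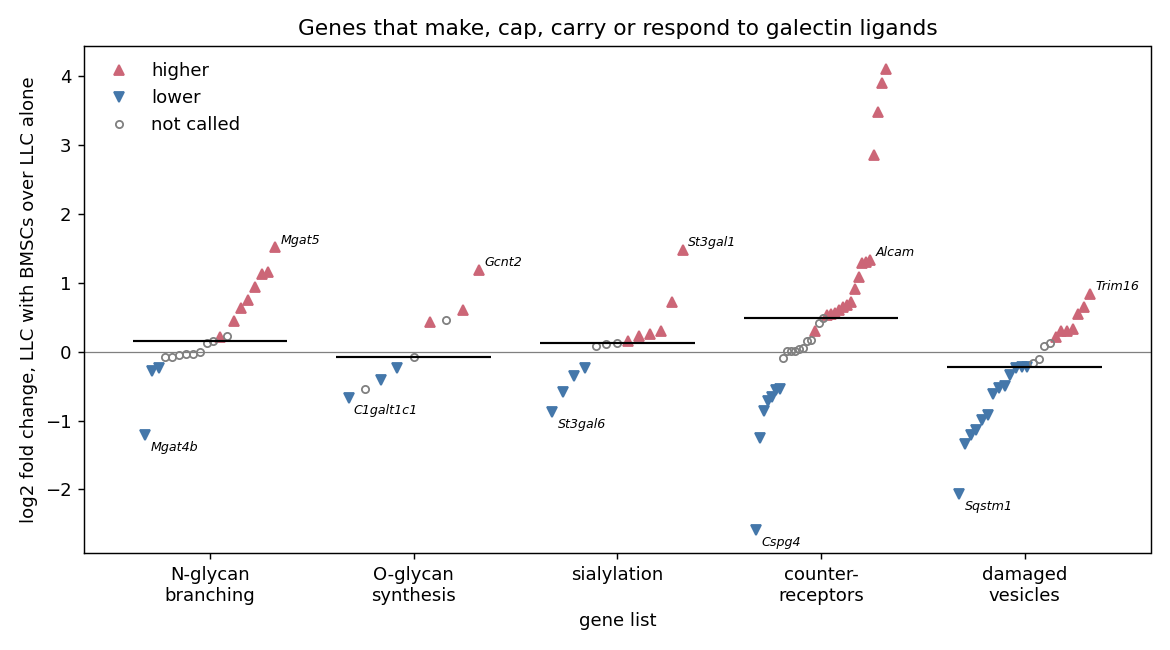
Log2 fold change of LLC with BMSCs over LLC alone for the tested genes of 5 lists, ordered by value. Triangles are genes called higher or lower by edgeR, open circles were not called, and black lines are list medians. B4galt6 and Clec7a, at or under 3 counts in every library of LLC alone, are not drawn, and the 4 unlabelled points above 2 are Muc1, Egfr, Cd93 and Ptprc, with under 100 mean normalized counts. The median of the counter-receptor list is 0.49 and that of the damaged-vesicle list is -0.22.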

How the data were processed

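RNA of sorted LLC-RFP cells was sequenced in 6 libraries, and their labels place 3 in LLC alone and 3 in LLC with BMSCs. The authors deposited expected counts per gene and transcript, which are estimates that need not be whole and are not normalized, and FPKM values, which divide by transcript length and library total. The submitters' processing notes name HISAT, StringTie, Cufflinks and GATK and the build mm8, without their roles. The methods name the BGISEQ-500 platform and the labels Illumina protocols. Transcripts assembled by the authors have no symbol and are part of the 1151 genes without one.

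Expected counts were rounded and tested with edgeR 4.0.16 in R 4.3.3 (TMM, default filter on low counts, quasi-likelihood test, Benjamini-Hochberg adjustment over 13353 genes, threshold 0.05). Each SE was obtained as the size of the log2 fold change over the square root of its F statistic. Levels between genes are in FPKM. With 33476347 to 46189113 fragments per library, 3 counts are at most 0.0896 CPM, a floor that covers counting error only. The biological coefficient of variation was 9.92%. On simulated counts for this comparison with 13353 genes, 192 of 200 genes with a planted log2 fold change of 1 were recovered with 8 false calls. The simulation gave all genes this same coefficient of variation, had no length trend and changed only these genes. Its share of false calls therefore need not hold for the real libraries. Single values were compared by exact permutation tests (two-sided, scipy 1.17.1). In the alternative without a length trend, a smooth curve of each library's deviation over transcript length was removed.

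The genes and lists were chosen with earlier results of these data known. Genes named from a list are the 4 with the largest absolute log2 fold change among called genes with at least 100 mean normalized counts and groups that do not overlap, with at least 1 in each direction. Marker lists name their most abundant gene, and the nearest profiles are the 3 closest genes, of which 1 is not reported here. Other named genes were chosen after their values were seen. Alternatives were DESeq2 1.42.0, no TMM, upper-quartile scaling, other filters, limma 3.58.1 on log2(FPKM + 1) and log2(FPKM + 0.1), a replicate block, close replicates summed, a threshold on fold change, and each library left out. After the data were seen, the length-trend fit without LLC alone replicate 3 and the ratio of Lgals3bp to Lgals3 were added. Promoters are from RefSeq (GRCm38.p6, 5 of 6 genes matched) and gene positions and exons from GENCODE (GRCm38). Protein sequences and the promoter of Lgals1 were not analysed here.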

Additional observations from a re-analysis of the deposited data

How the results depend on the processing

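Over 19 alternatives each, the calls of Lgals3, Lgals3bp and Lgals9 and their directions held throughout, with log2 fold changes of -1.69 to -1.40, 1.70 to 1.85 and 1.497 to 1.77. Lgals4 held over the 16 alternatives in which it could be tested, at 0.30 to 1.63, the lowest on log2(FPKM + 1), a scale that understates low genes. Lgals1 lost its call with the length trend removed (-0.082, adjusted p = 0.255), with this and without LLC alone replicate 3 (-0.075, adjusted p = 0.327), with limma on log2(FPKM + 1) without a filter (-0.40, adjusted p = 0.0528) and with a log2 fold change of at least 1 required (-0.43), and 1 gene was then called lower in place of 2. That last threshold also ends the call of Lgals8 (0.59) and leaves 1155 genes higher and 957 lower in all. The cause of the limma result was not tested. Leaving out each library in turn kept the calls of all 6 genes, with 3617 to 4736 genes higher and 3581 to 4539 lower, and Lgals1 at -0.49 to -0.31. With CPM in place of FPKM, 4 of the 6 genes kept their place in the order of levels in each group. No result reversed. With LLC alone replicates 1 and 2 and LLC with BMSCs replicates 2 and 3, the closest pairs, summed, the higher sialylation genes numbered 2 and the lower ones 2, the lower N-glycan genes 1 and the higher damaged-vesicle genes 4.

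Libraries of the same number showed little shared deviation (correlations of 0.076, -0.106 and 0.057). With 3 libraries per group these values cannot exclude that the numbers pair them. With the replicate number as a block, 4161 genes were higher and 4058 lower, and the calls of the 6 genes did not change (Lgals1 -0.42, adjusted p = 0.00917). With 3 libraries per group, the spread is estimated mainly by sharing it between genes, and counts of 8 to 32 leave Lgals4 with the widest error of the 6.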
